A study of Arabidopsis thaliana with 9 samples.

Results

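The heterochromatic knob hk4S is a compact stretch of the short arm of Arabidopsis thaliana chromosome 4. It was taken here as the 500 bp windows from 1610001 to 2280000 of chromosome 4 (build TAIR10, positions counted from 1), which gave 1340 of the 239339 windows of the deposited small RNA (sRNA) table, or 670 kb. It was set beside 2000 windows of the distal short arm (500001 to 1500000) and 4000 windows of the pericentromeric region (3000001 to 5000000). The rule names windows by position and uses no measured value. The study measured sRNA and mRNA in siliques, the fruits that hold the developing seeds, of ecotype Columbia-0 at 1 to 5 days after pollination. The 3 sRNA libraries, 1 per condition, were an AGO3 immunoprecipitate from ago3-3 plants carrying pAGO3:FHA-AGO3, a control immunoprecipitate with FLAG antibody from wild-type plants, and total sRNA from wild-type plants. The 6 mRNA libraries covered plants homozygous for ago3-3, heterozygotes and the wild type, with 2 biological samples of each. The AGO3 immunoprecipitate thus came from another genotype than both libraries it was set against, and the construct, by its name, was driven by the promoter of AGO3.

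Plant heterochromatin is rich in transposons and their remnants, and much of it gives rise to short interfering RNAs. In RNA-directed DNA methylation, Pol IV and RDR2 make double-stranded RNA, DCL3 cuts it, and ARGONAUTE proteins of the AGO4 group carry the products back to matching loci, while DDM1, MET1 and the CMT methyltransferases maintain methylation in compact chromatin. The knob of Columbia is known as pericentromeric sequence that an inversion placed within the gene-rich short arm. ARGONAUTE 3 (AGO3) is a close relative of AGO2, and both bind sRNAs. No chromatin mark was measured in the files used here, so the label was read against the annotation: 117 of the 187 annotated genes that overlap the knob were pseudogenes, 47 were protein-coding and 23 were other RNA genes. The distal short arm held 22 pseudogenes among 343 genes and the pericentromeric region 387 among 454, so by its gene content the knob lay much closer to the pericentromeric region than to the arm around it.

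The sRNA libraries held 37189850 reads (AGO3 immunoprecipitate), 25613847 reads (control) and 40262802 reads (total sRNA) over the whole table. The 100 most read windows of the genome held 42.4%, 48.9% and 49.8% of these reads, so reads-per-million (RPM) were shaped by few windows, and results are given below under other scalings where these change them. No p-value is given for sRNA, since each condition had 1 library. Intervals are exact binomial 95% intervals and cover counting error only, and windows are not replicates. How reads of repeats that match more than one place were assigned is not given in the sources used here. Fewer cells of a type and less RNA per cell cannot be told apart in such whole-organ samples.

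sRNA was spread over most of the knob. The knob took 117960 reads of the AGO3 immunoprecipitate, which is 3172 RPM or 0.317% of the library (interval 0.315% to 0.319%). It took 109025 reads of the control, 4256 RPM or 0.426% (0.423% to 0.428%), and 153408 reads of total sRNA, 3810 RPM or 0.381% (0.379% to 0.383%). The knob makes up 0.560% of all windows, so in each library its share of reads was below its share of windows. Its windows were nevertheless seldom empty: 5.07% held no read in the AGO3 immunoprecipitate, 9.40% in the control and 3.06% in total sRNA, against 24.1%, 29.4% and 19.1% in the distal short arm and 3.03%, 4.93% and 0.875% in the pericentromeric region, where empty windows were rarer still.

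The typical knob window was far above the typical arm window and somewhat above the typical pericentromeric one. The median knob window held 28 AGO3 reads, 26 control reads and 43 total reads. In the distal short arm the medians were 4, 4 and 3 reads in the same libraries, and in the pericentromeric region 22, 21 and 32. A window counted as covered at 1 RPM or more. By that measure 42.3% of knob windows were covered in the AGO3 immunoprecipitate, 51.2% in the control and 52.4% in total sRNA. The distal short arm reached 15.4%, 18.3% and 15.2%, close to the whole table (15.1%, 19.6% and 16.6%), and the pericentromeric region 31.4%, 42.7% and 41.0%. In all 3 libraries the knob therefore had the highest covered share of the 3 regions.

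Means gave another order, because a few windows carry them. The knob averaged 88.0 AGO3 reads, 81.4 control reads and 114 total reads per window, and the distal short arm 66.7, 44.0 and 74.3. The pericentromeric region averaged 147, 128 and 204 reads, but 3 of its 4000 windows held 50% of its reads in each library, the most read one 206748 AGO3 reads. With every window capped at 1000 reads, the mean of the knob stood at 1.33 times (AGO3), 1.39 times (control) and 1.48 times (total) that of the pericentromeric region, where uncapped means gave 0.600, 0.637 and 0.562 times. In the knob 69 windows (AGO3), 64 windows (control) and 86 windows (total) held 50% of reads.

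Cut into consecutive segments of 67 kb, chromosome 4 showed where the change lay. All 10 segments of the knob had 32.8% to 78.4% of windows covered in total sRNA, above every one of the 14 segments that lie wholly in the distal short arm (6.72% to 29.9%). The 29 segments of the pericentromeric region ranged from 17.9% to 85.1% and overlapped those of the knob. In the AGO3 immunoprecipitate the knob segments covered 24.6% to 71.6% and the arm segments 5.22% to 26.9%, so here the lowest knob segment lay within the range of the arm. At the boundaries given by position, the step was visible on the distal side only. The median window held 25.5 AGO3, 21 control and 34.5 total reads in the first 10 kb inside the distal boundary, against 1.5, 3 and 3.5 reads in the 10 kb outside it. On the side towards the centromere the last 10 kb inside had medians of 16, 32.5 and 34.5 reads, and the next 10 kb outside, with 67.5, 47 and 112.5, was higher in every library.

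**Figure D1:**
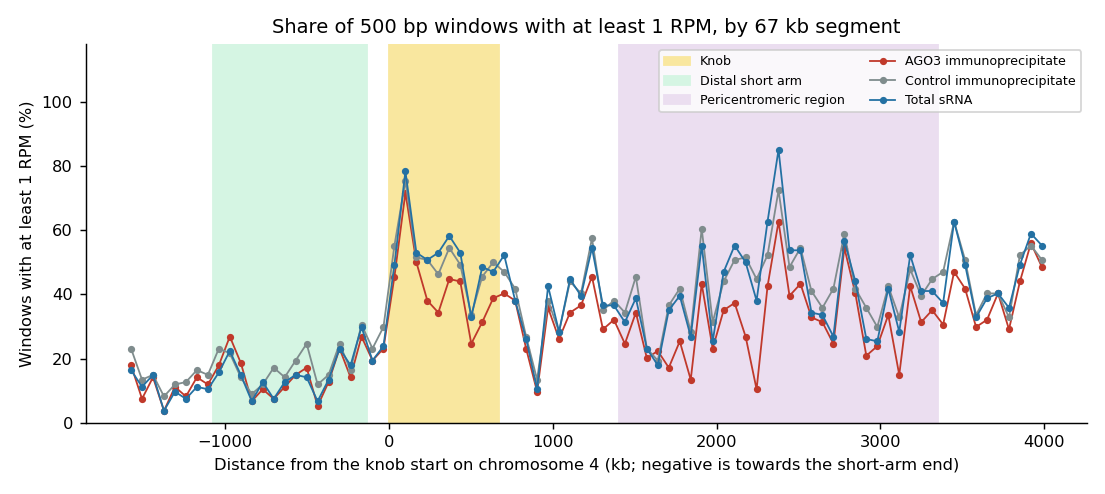
Share of 500 bp windows with at least 1 RPM (y axis, percent) in consecutive 67 kb segments of chromosome 4, by distance from the knob start (x axis, kb), for the AGO3 immunoprecipitate, the control and total sRNA, 1 library each. The 10 knob segments lie between 32.8% and 78.4% in total sRNA and the 14 segments of the distal short arm between 6.72% and 29.9%.

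Within the knob the sRNA was uneven. The most read window, from 2073501 to 2074000, overlaps no annotated gene and held 18870 AGO3 reads (507 RPM), 19289 control reads (753 RPM) and 24227 total reads (602 RPM). This single window made up 16.0% of the knob's AGO3 reads, 17.7% of its control reads and 15.8% of its total reads. The second, from 2076001 to 2076500, overlaps the long non-coding RNA genes AT4G04795 and AT4G04805 and held 7184 AGO3, 6666 control and 4461 total reads. Its RPM ratio of AGO3 immunoprecipitate to total sRNA was 1.74 (1.68 to 1.81), while that to the control was 0.742 (0.718 to 0.768). Both stand in an unbroken run of 11 windows, 2073001 to 2078500, with at least 1 RPM in all 3 libraries, which also takes in the pseudogene AT4G04293 and held 30611 AGO3, 29186 control and 33202 total reads. Of the other most read windows, that of the transcribed pseudogene AT4G04250 (2048001 to 2048500) held 1288 AGO3, 2137 control and 1782 total reads, and that of the pseudogene AT4G03650 (1620501 to 1621000) held 602, 1015 and 926 reads. The window of the non-coding RNA genes AT4G03811 and AT4G04675 (1757001 to 1757500) held 945 AGO3, 947 control and 1501 total reads.

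Densely and sparsely covered stretches alternated at the scale of a few kb. Of the knob windows, 500 (37.3%) held at least 1 RPM in every library, in 203 runs of which the longest spanned 16 windows or 8 kb. The longest runs, 1618001 to 1626000 and 1787501 to 1795500, took in 5 pseudogenes and the protein-coding gene AT4G03830. The opposite, under 1 RPM in every library, held for 530 windows (39.6%), against 78.0% in the distal short arm and 48.3% in the pericentromeric region. The longest such gap in the knob was 9.5 kb, from 2126501 to 2136000, with 108 AGO3, 75 control and 50 total reads over 19 windows. It holds 4 protein-coding genes, among them AT4G04340 (osca1, named for a reduced calcium response to hyperosmotic stress) and EMB2369 (an EMBRYO DEFECTIVE gene). Other gaps held MEE51 (maternal effect embryo arrest 51; 1939001 to 1943500, 61 AGO3, 44 control and 86 total reads) and RbcX1, a homologue of the cyanobacterial RbcX protein (2112501 to 2117500, shared with AT4G04320, with 49, 36 and 60 reads). Gaps in the distal short arm ran to 23.5 kb and in the pericentromeric region to 71 kb.

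Protein-coding windows of the knob were covered less often than the others. Pseudogenes lay under 622 knob windows (46.4%), whose medians were 32 AGO3, 30 control and 49.5 total reads. The 464 windows with no annotated gene (34.6%) had medians of 39.5, 32 and 52 reads and held 49.6% of the knob's AGO3 reads, 47.3% of its control reads and 48.8% of its total reads. The 216 windows of protein-coding genes (16.1%) had medians of 6, 6 and 5 reads. The 530 windows under 1 RPM in every library were nevertheless of all kinds: 38.5% overlapped pseudogenes, 28.5% protein-coding genes and 29.4% no gene. In total sRNA 58.4% of pseudogene windows, 58.8% of windows without a gene and 22.7% of protein-coding windows of the knob were covered. The same classes reached 63.0%, 28.2% and 6.39% in the distal short arm, and 43.1%, 40.0% and 24.9% in the pericentromeric region. Pseudogene windows of the knob and of the arm were thus alike in this share, whereas windows without a gene and protein-coding windows were covered more often in the knob than in the arm. Windows with no protein-coding gene or pseudogene filled 40 kb in a row, from 1700001 to 1740000, where the median window of each 10 kb held 59.5 to 89.5 AGO3, 47.5 to 72.0 control and 64.0 to 80.5 total reads.

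**Figure D2:**
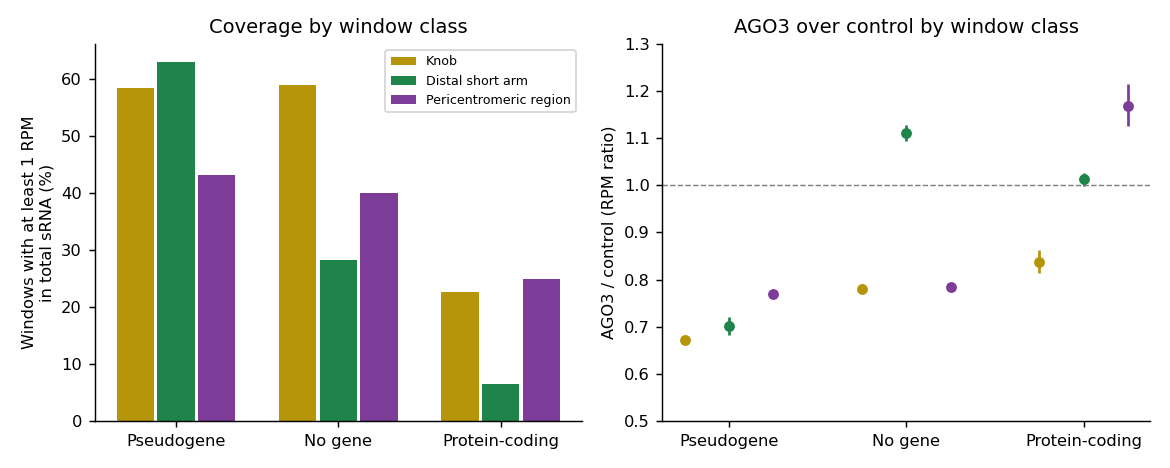
Left, share of windows with at least 1 RPM in total sRNA (y axis, percent) by what the window overlaps, in the knob, the distal short arm and the pericentromeric region. Right, RPM ratio of the AGO3 immunoprecipitate to the control in the same windows, with exact 95% counting intervals as bars. Pseudogene windows of the knob have the ratio 0.672 and protein-coding ones 0.838.

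The AGO3 immunoprecipitate was then set against the control, to see whether knob sRNA was recovered with AGO3. Over the whole knob the RPM ratio was 0.745 (0.739 to 0.751), and it was 0.791 (0.788 to 0.794) in the pericentromeric region and 1.05 (1.04 to 1.05) in the distal short arm. Without the most read 1% of windows of each region the ratios were 0.756, 0.827 and 0.896 in the same order, so the arm fell below 1. With windows capped at 1000 reads they were 0.931, 0.971 and 1.07. The knob stood at 0.832 (0.826 to 0.839) times total sRNA in the AGO3 immunoprecipitate, and at 1.12 (1.11 to 1.13) times total sRNA in the control, which turned to 0.935 with windows capped at 1000 reads. The size of these ratios depended on the scaling: AGO3 over control was 0.661 when scaled to reads outside the 100 most read windows of the genome and 0.902 with TMM factors (the trimmed mean scaling of edgeR), and AGO3 over total turned to 1.07 with TMM factors. Set against the median of all windows, the scaling drops out. Among the 39021 windows with at least 20 reads in each library, the median log2 ratio of AGO3 to control was -0.40 over 696 knob windows and -0.29 over all, a difference of -0.11 under all 3 scalings. The same difference was 0.01 for AGO3 over total sRNA and 0.16 for control over total sRNA. By this median over windows, the knob lay lower than other windows for AGO3 over control, close to them for AGO3 over total sRNA, and higher for control over total sRNA.

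Most of the knob lay below the control at the scaling to table totals, as did most of the genome. Of its 67 bins of 10 kb, 60 had an AGO3 to control RPM ratio below 1, from 0.443 to a highest value of 1.79, with a median of 0.773. Over the 11518 bins of the nuclear chromosomes with at least 100 reads in both libraries together, 79.3% were below 1 and the median was 0.729; in the distal short arm 69.4% of such bins were below 1 and in the pericentromeric region 83.5%. With TMM factors 40 knob bins (59.7%) were below 1, against 62.9% of all bins. The interval lay wholly below 1 in 52 knob bins (77.6%, against 67.6% of all bins) and wholly above it in 2 (2.99%, against 13.4%). With TMM factors these counts were 31 (46.3%, against 47.4% of all bins) and 17 (25.4%, against 25.5%), close to the shares of the genome. The 2 bins above 1 with table totals were 1780001 to 1790000 and 2060001 to 2070000. The first stood at 1.41 (1.29 to 1.55), with 1440 AGO3, 703 control and 921 total reads. The second stood at 1.79 (1.57 to 2.04), with 838, 322 and 794 reads. The second adjoins the bin of the most read windows, which stood at 0.731 (0.720 to 0.743). The 67 kb segments ranged from 0.664 to 0.877 in the knob, 0.686 to 3.25 in the distal short arm and 0.481 to 1.61 in the pericentromeric region. These regions had 10, 14 and 29 segments, and a range tends to widen with their number. The value of 3.25 was that of 1 arm segment. Its median ratio of RPM plus 1 was 0.753 over 8 windows with at least 100 reads in both libraries together.

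**Figure D3:**
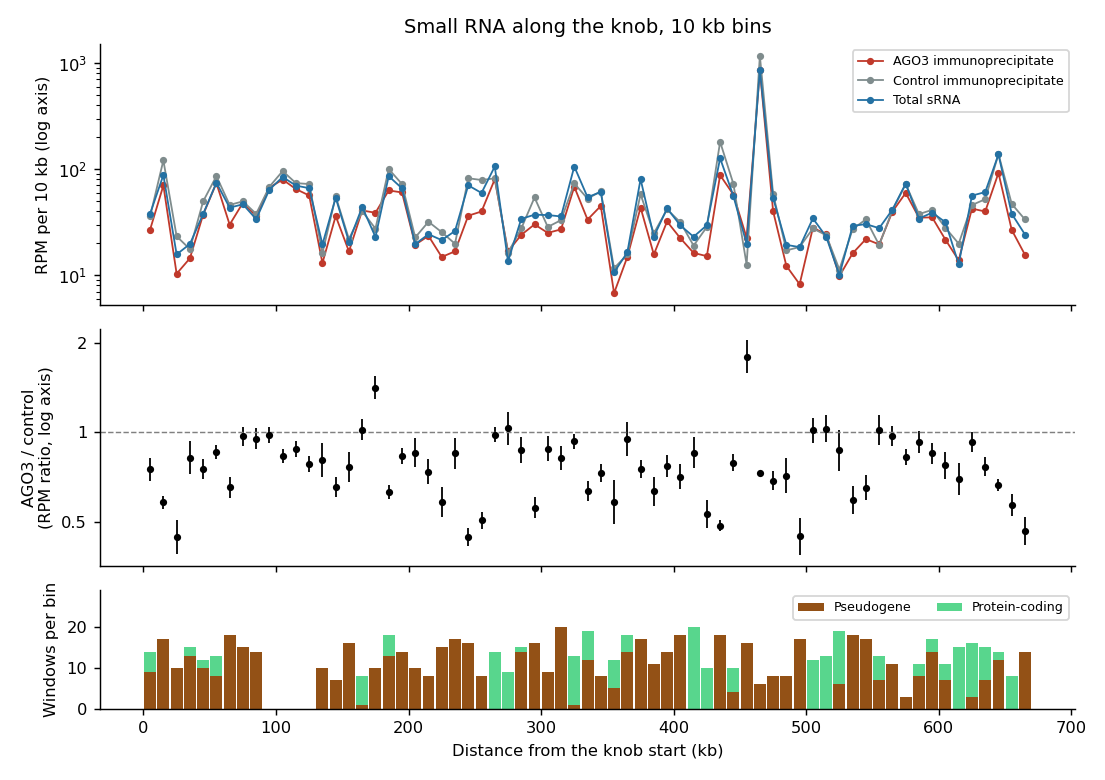
Top, sRNA level in 67 bins of 10 kb along the knob (y axis, RPM, log axis) in the AGO3 immunoprecipitate, the control and total sRNA. Middle, RPM ratio of AGO3 to control with exact 95% counting intervals (log axis); bottom, number of the 20 windows of each bin that overlap a pseudogene or a protein-coding gene. The ratio is below 1 in 60 bins with table totals as the scaling (79.3% of all bins of the genome are), and the highest bin stands at 1.79.

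No knob window was enriched in the AGO3 immunoprecipitate at a ratio of 4 after 1 RPM was added to both values. A window counted as enriched when its RPM plus 1 was at least 4 times that of the control. A window needs 112 AGO3 reads or more to reach this. This held for 0 of 1340 knob windows, against 0.549% of all windows of the table. Of the 213 knob windows with enough reads 0 passed. For a count of 0, 3 of 213 or 1.41% would be a rough upper limit of the share if the windows were independent draws. They come from 1 library per condition, are not replicates, and neighbouring windows are alike, so no conclusion is drawn from this limit. Of windows with enough reads, 7.81% passed in the table, with 16 of 156 (10.3%) in the distal short arm and 11 of 354 (3.11%) in the pericentromeric region. At a ratio of 2, 10 knob windows passed (0.746%, against 1.33% of all windows), or 1.76% of those with enough reads, against 8.78% in the table, 11.4% in the distal short arm and 2.79% in the pericentromeric region. With 0.1 RPM added in place of 1, and at least 20 AGO3 reads, 16 knob windows reached 4 (1.19%, against 1.62% of all windows). The reverse, with 1 RPM added, was rare too. Control over AGO3 reached 4 in 1 knob window (0.0746%, against 0.259% of all windows), or 0.339% of those with enough reads, against 3.17% in the table. It reached 2 in 60 knob windows (4.48%, against 2.68%), or 8.75% of those with enough reads, against 13.7%.

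The middle 80% of knob windows reached less far upward than that of the genome, but about as far downward. The lowest single window stood at 0.222 in the knob and at 0.00966 over all chromosomes, which have far more windows. Among windows with at least 100 reads in both libraries together, the median ratio of RPM plus 1 was 0.812 over 444 knob windows, and the middle 80% of windows lay between 0.508 and 1.26. It was 0.929 over 255 windows of the distal short arm, 0.893 over 855 of the pericentromeric region and 0.884 over 29352 of all chromosomes. The ratio was above 1 in 25.7% of the knob windows, 42.7% of the arm windows, 35.6% of the pericentromeric windows and 37.9% of all. It was 0.5 or less in 9.68% of the knob windows, 12.5% of the arm windows, 5.96% of the pericentromeric windows and 9.85% of all. The middle 80% of all windows lay between 0.503 and 1.73, and of pericentromeric windows between 0.552 and 1.35. The standard deviation of the log2 ratio was 0.54 in the knob, 1.14 in the arm and 0.68 in the pericentromeric region. Across its 1340 windows the knob's AGO3 and control reads were ranked alike, with a Spearman correlation of 0.871, and AGO3 and total reads with 0.905; these windows share libraries, depth and repeated sequence, and the values are descriptions.

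**Figure D4:**
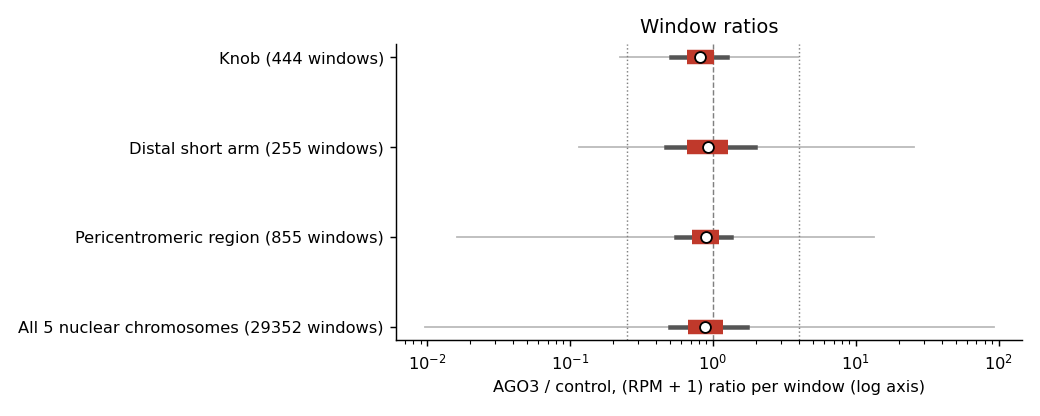
Ratio of RPM plus 1 in the AGO3 immunoprecipitate to that in the control per 500 bp window (x axis, log axis), for windows with at least 100 reads in both libraries together. Circles are medians, thick bars the middle 50%, dark lines the middle 80% and thin lines the full range; the dotted lines mark ratios of 0.25 and 4. The knob, with a median of 0.812 and a range of 0.222 to 3.96, does not reach 4.

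The upper end was read from windows with at least 100 reads in both libraries together. Their 5 highest ratios lay in a pseudogene, in protein-coding genes and, in 1 case, outside any gene. Other windows past a ratio of 2 had fewer reads, and several of these lay outside any gene. The highest ratio of RPM plus 1, 3.96, was that of 1783001 to 1783500 in the pseudogene AT4G03824, with 317 AGO3, 36 control and 48 total reads. The RPM ratio there was 6.06 (4.29 to 8.82) over the control and 7.15 (5.27 to 9.90) over total sRNA. The window before it, also in AT4G03824, held 51 AGO3, 0 control and 4 total reads, and over its 4 windows the pseudogene stood at 7.17 (5.09 to 10.4) times the control. The next, 1875001 to 1875500 in the protein-coding gene AT4G03940 and the RNA gene AT4G02815, was among the most read windows, with 1326 AGO3, 310 control and 367 total reads, an RPM ratio of 2.95 (2.60 to 3.34) over the control. Over its 5 windows AT4G03940 stood at 1.22 (1.13 to 1.31), so that the surplus lay in 1 window of the gene. A window of AT4G03820 (1771501 to 1772000) held 138 AGO3, 23 control and 31 total reads, and one without a gene (1702501 to 1703000) 256, 59 and 189. A window of CRK38, a cysteine-rich receptor-like kinase gene, held 238 AGO3, 60 control and 2 total reads (2242501 to 2243000).

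At the lower end, 2036001 to 2036500 in the long non-coding RNA gene AT4G04221 held 5 AGO3, 105 control and 198 total reads, an RPM ratio of 0.0328 (0.0104 to 0.0790) over the control. Over its 7 windows that gene held 21 AGO3, 131 control and 217 total reads. The window was the only one of the knob whose control RPM plus 1 reached 4 times that of the AGO3 immunoprecipitate. The pseudogene AT4G04140 held 2 of the windows that stood apart, which differed from each other: 1986001 to 1986500 had 204 AGO3, 230 control and 1648 total reads, low in both immunoprecipitates, and 1988501 to 1989000 had 120, 358 and 95, high in the control alone. The pseudogenes AT4G04230 and AT4G03920 and a window without a gene (1865001 to 1865500; 259 AGO3, 658 control and 484 total reads) made up the other windows with the lowest ratios.

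Set against total sRNA, 3 knob windows reached 4 times in the AGO3 immunoprecipitate (0.224%, against 0.563% of all windows), or 1.41% of those with enough reads, against 8.0%. Total sRNA reached 4 times the AGO3 immunoprecipitate in 2 (0.149%, against 0.104% of all windows), or 0.712% of those with enough reads, against 1.29%. The 3 were those of AT4G03824 and CRK38 above and 1 in PFA-DSP4, an atypical dual-specificity phosphatase gene (1887501 to 1888000), with 207 AGO3, 181 control and 2 total reads. There the control was as high as the AGO3 immunoprecipitate, with an AGO3 to control RPM ratio of 0.788 (0.642 to 0.967).

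By gene, pseudogenes lay below protein-coding genes. Of the 117 knob pseudogenes, 107 held at least 100 reads in both immunoprecipitates together, with a median RPM ratio of AGO3 to control of 0.720. Among the highest were AT4G03824, AT4G04276 at 2.12 (1.34 to 3.48) and AT4G04280 at 2.05 (1.53 to 2.79). Of the 47 protein-coding genes 28 held that many reads, with a median of 0.839. The place of such ratios relative to 1 depends on the scaling: the median log2 ratio over all windows was -0.29 with table totals and -0.01 with TMM factors. The 17 other RNA genes with that many reads, of 23, had a median of 0.687. Summed over windows, the RPM ratio was 0.672 (0.663 to 0.682) in pseudogene windows, 0.780 (0.771 to 0.790) in windows without a gene and 0.838 (0.815 to 0.862) in protein-coding windows. Pseudogene windows were low outside the knob as well, at 0.701 (0.682 to 0.721) in the distal short arm and 0.769 (0.763 to 0.775) in the pericentromeric region. Protein-coding windows stood at 1.01 (0.999 to 1.03) in the arm and 1.17 (1.12 to 1.21) in the pericentromeric region. Heavily read windows count most in such sums, as 1 protein-coding window of the arm with 11805 AGO3 reads. Medians of RPM plus 1 ratios, among windows with at least 100 reads in both libraries together, gave another order in the knob. They were 0.742 (pseudogene), 0.878 (no gene) and 0.825 (protein-coding). Protein-coding medians were 0.865 in the arm and 0.931 in the pericentromeric region, and pseudogene medians 0.770 and 0.860.

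The CRK family, cysteine-rich receptor-like kinases linked to defence, has 4 neighbouring members in the knob, with unlike ratios. CRK38 held 581 AGO3, 312 control and 484 total reads, an RPM ratio of 1.28 (1.12 to 1.48) over the control, and CRK39 held 419, 486 and 618 reads, a ratio of 0.594 (0.520 to 0.678). CRK36 lay at 1.05 (0.791 to 1.40) on 128 AGO3 and 84 control reads, and CRK37 held 12 AGO3 and 19 control reads. Near-identical copies can share reads, so the values of single members are uncertain. The gene of OFP9, an OVATE family protein, was rich in sRNA over its 3 windows, with 1487 AGO3, 958 control and 2258 total reads and a ratio of 1.07 (0.985 to 1.16). WRKY42, a WRKY transcription factor gene, had 276 AGO3, 227 control and 470 total reads. Of both miRNA genes of the knob, the windows of MIR841b held 476 AGO3, 477 control and 1116 total reads, 0.462 times total sRNA in the AGO3 immunoprecipitate. Those of MIR3932a held 25, 21 and 25 reads. Most reads given for MIR841b fell in 2184001 to 2184500 (450 AGO3, 458 control and 1089 total reads). That window also overlaps the transcribed pseudogene AT4G04408 and the pseudogene AT4G04409, and window counts do not tell these genes apart.

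The mRNA libraries were used to ask whether genes of the knob differed with the ago3-3 genotype. They held 30338416 to 36258980 estimated counts. AGO3 itself stood at 2.11 and 3.29 counts-per-million (CPM) in homozygous libraries, 12.6 and 12.0 CPM in heterozygotes and 30.4 and 17.6 CPM in the wild type, which follows the labels. Homozygous siliques differed from the wild type by a log2 value of -3.15 ± 0.31 (SE; adjusted p = 0.142, edgeR). On the first principal component (37.3% of the variance) homozygous replicate 2 (44.2) and wild type replicate 1 (49.9) lay apart from the other 4 libraries, all of which had negative values. Summed over 6 pollen markers, CPM was 76.4 and 55.1 in homozygous libraries, 104 and 162 in heterozygotes and 147 and 125 in the wild type. Summed over 7 seed maturation markers it was 130 and 19.6 in homozygous libraries, 72.8 and 231 in heterozygotes and 19.6 and 50.9 in the wild type. The 6 pollen markers were all lower in homozygous than in wild-type libraries (median log2 -1.08, 0 called by edgeR), and 6 of 6 tested seed maturation markers were higher (median 1.34, 0 called). The part of these differences in the knob values was not tested.

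No knob gene passed the test in any comparison. Of the 187 knob genes 67 had a row in the mRNA table, which were the 47 protein-coding genes, 14 long non-coding RNA, 4 non-coding RNA and 2 miRNA genes; the 117 pseudogenes and 3 others had none. Of the 67, 19 had 0 counts in all 6 libraries and 35 passed the expression filter. edgeR's quasi-likelihood test called 0 of the 35 between homozygous and wild-type, heterozygous and wild-type, and homozygous and heterozygous siliques, as it called 0.0% of all 22702 genes tested in each. An unadjusted p under 0.05 was reached by 1, 1 and 0 knob genes, against 5.7%, 4.43% and 3.28% of all genes. DESeq2 called 0 knob genes in the same comparisons, against 0.465%, 0.235% and 0.111% of all genes with an adjusted p. The median log2 difference of the 35 was 0.03 for homozygous against wild type (21 higher, 14 lower), 0.02 for heterozygous against wild type (19 and 16) and -0.04 for homozygous against heterozygous (16 and 19), beside 0.01, 0.00 and 0.01 over all genes.

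In 9 of the 10 most abundant knob mRNAs the homozygous and wild-type libraries overlapped, where 34.1% of all genes tested did not overlap. Several of these 10 genes lay in the sRNA gaps. The exception was AT4G04320, at 34.0 and 35.2 CPM in homozygous libraries, 36.8 and 37.7 CPM in heterozygotes and 37.0 and 36.2 CPM in the wild type, a log2 difference of -0.08 ± 0.10 (SE) for homozygous against wild type. AT4G04340 stood at 186 and 162 CPM in homozygous libraries, 191 and 152 CPM in heterozygotes and 167 and 174 CPM in the wild type, ranges that overlap. EMB2369 stood at 67.5 and 66.7 CPM in homozygous libraries, 66.6 and 66.6 CPM in heterozygotes and 71.9 and 61.5 CPM in the wild type. Its log2 difference was 0.01 ± 0.11 (SE) for homozygous against wild type and 0.00 ± 0.11 (SE) for heterozygous against wild type. PUX4, a UBX domain protein gene, averaged 49.6 ± 5.77 CPM in homozygous, 47.8 ± 4.01 CPM in heterozygous and 49.0 ± 2.89 CPM in wild-type libraries (SD, n = 2 each). FIB, a fibrillin of plastoglobules, had a log2 difference of -0.05 ± 0.13 (SE) for homozygous against wild type and 0.02 ± 0.13 (SE) for heterozygous against wild type. PMP22, a peroxisomal membrane protein gene, averaged 24.4 ± 0.39 CPM in homozygous, 23.8 ± 1.26 CPM in heterozygous and 24.1 ± 1.05 CPM in wild-type libraries (SD, n = 2 each). MEE51 stood at 30.1 and 33.3 CPM in homozygous libraries, 36.4 and 28.9 CPM in heterozygotes and 32.5 and 28.2 CPM in the wild type. AT4G04460 varied within genotypes, at 88.0 and 35.7 CPM in homozygous libraries, 93.0 and 98.9 CPM in heterozygotes and 18.4 and 87.3 CPM in the wild type. Its lowest values were those of homozygous replicate 2 and wild type replicate 1, the libraries that lay apart.

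**Figure D5:**
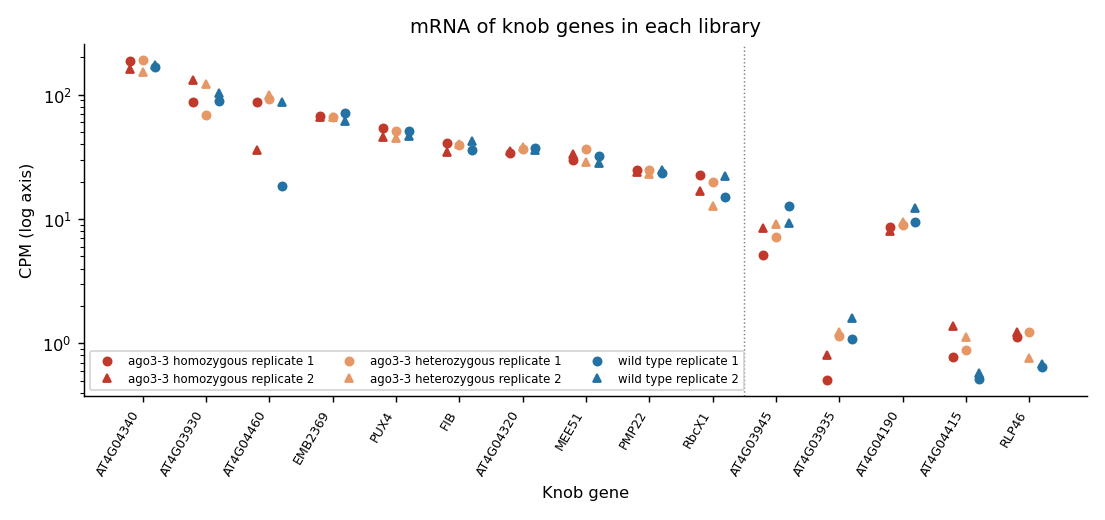
mRNA level (y axis, CPM, log axis) of the 10 knob genes with the highest mean CPM (left of the dotted line) and the 5 with the smallest unadjusted p for homozygous against wild type (right), one symbol per library, with 2 libraries per genotype. Homozygous and wild-type libraries overlap in 9 of the 10 genes on the left, and AT4G04460 is lowest in wild type replicate 1 and homozygous replicate 2.

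The smallest p between homozygous and wild-type siliques was that of AT4G03945, at 5.15 and 8.48 CPM in homozygous libraries, 7.19 and 9.08 CPM in heterozygotes and 12.9 and 9.24 CPM in the wild type. Its log2 difference was -0.70 ± 0.28 (SE; unadjusted p = 0.0405, adjusted p = 0.862, edgeR). The 4 that followed were AT4G03935 (-1.04 ± 0.47), AT4G04190 (-0.40 ± 0.18), AT4G04415 (0.99 ± 0.51) and the receptor-like protein gene RLP46 (0.83 ± 0.46), none past an unadjusted p of 0.05. In all 5 the values of both homozygous libraries lay on 1 side of both wild-type libraries. The 5 were picked by p for this same comparison, so this adds no support. Such groups without overlap were found for 10 of the 35 knob genes (28.6%), against the 34.1% of all genes given above. Heterozygous and wild-type libraries did not overlap in 10 knob genes, against 34.2% of all genes, nor homozygous and heterozygous libraries in 9, against 30.6%. Between heterozygous and wild-type siliques AT4G04370 had the smallest p (log2 difference 0.36 ± 0.14, SE; unadjusted p = 0.0327, adjusted p = 0.955, edgeR).

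Protein-coding knob genes that passed the mRNA filter and those that did not had similar medians in total sRNA, and both immunoprecipitates had lower medians in those that did not. The 28 protein-coding genes that passed the expression filter had a median of 21.7 total sRNA reads per window, and the 19 that did not had 21.5. In the AGO3 immunoprecipitate the medians were 13.4 reads per window in those that passed and 9 in the others, and in the control 15.4 and 6.67. The gene with most total sRNA per window, 753 reads, was OFP9, which did not pass and had at most 2.33 estimated counts in any mRNA library.

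The machinery that makes and uses heterochromatic sRNA was expressed in these siliques and gave no call. All 21 genes of the list were tested, edgeR called 0 in any comparison, and the list had a median log2 difference of 0.10 for homozygous against wild type (17 higher, 4 lower), 0.04 for heterozygous against wild type (17 and 4) and 0.01 for homozygous against heterozygous (11 and 10), beside 0.01, 0.00 and 0.01 over all genes. AGO4, the main ARGONAUTE of RNA-directed DNA methylation, stood at 200 and 173 CPM in homozygous libraries, 166 and 196 CPM in heterozygotes and 181 and 179 CPM in the wild type. DDM1, the chromatin remodeller that keeps transposons silent, stood at 18.5 and 18.0 CPM in homozygous libraries, 19.1 and 19.4 CPM in heterozygotes and 19.2 and 18.1 CPM in the wild type. The methyltransferase gene CMT3 had the largest difference of homozygous from wild type (log2 0.38 ± 0.12, SE; adjusted p = 0.862, edgeR), at 47.8 and 50.9 CPM in homozygous libraries, 38.8 and 45.4 CPM in heterozygotes and 39.9 and 35.9 CPM in the wild type.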

How the data were processed

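The sRNA values are read counts per 500 bp window as deposited by the authors, and the mRNA values are estimated counts per gene as deposited, of which 7.88% were not whole; they were rounded before testing. The submitters' processing notes name Bowtie, HISAT2, featureCounts and TAIR10; they leave versions, read lengths, strand and multiple-mapping rules not given in the sources used here. The knob, its comparison regions and all gene lists were chosen with earlier results of these data known.

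Genes were placed at windows with a RefSeq gene table of assembly TAIR10.1, used for names and placing only. Placing was checked on 326 miRNA genes, whose median was 278 total reads in place and 11.5 or fewer after a shift of 500 to 5000 bp. All coordinates are those of the sRNA table. RPM used the totals of that table, and window ratios were taken after adding 1 RPM. Covered and dense windows held at least 1 RPM. Named windows were the 5 most read of each library and the 5 highest and 5 lowest AGO3 to control ratios among those with at least 100 reads; windows past a ratio over total sRNA, miRNA genes, runs and bins were added after their values were seen, as were the genes named by sRNA content. Named mRNAs were the 10 highest in mean CPM, the 5 smallest p for homozygous against wild type, and AGO3; list members and AT4G04370 were picked after their values were seen.

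mRNA was tested with edgeR 4.0.16 (quasi-likelihood, TMM, limma 3.58.1, R 4.3.3) on all 6 libraries, leaving 3 residual degrees of freedom. The coefficient of biological variation was 0.185. P-values were adjusted by Benjamini-Hochberg over the 22702 of 34262 genes that passed the expression filter, at 0.05. SE is the log2 difference divided by the root of F. At these depths 3 counts equal 0.0827 to 0.0989 CPM. DESeq2 1.42.0 was the alternative tool. In simulated data of homozygous against wild type (22702 genes), 51% of 100 genes changed 2-fold and 92% of 100 changed 4-fold were recovered. The simulated data were more even than the real libraries, so these shares are not taken as the power of the real test. On the real libraries that test called 0 of 22702 genes. Even AGO3, with a log2 value of -3.15, stayed uncalled. P-values weigh each difference against the spread between the 2 biological samples per genotype, pooled over all genotypes and drawn in part from other genes. Intervals came from scipy 1.17.1 under Python 3.11.15, tables from pandas 2.3.3 and numpy 2.4.6, and figures from matplotlib 3.10.9.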

Additional observations from a re-analysis of the deposited data

How the results depend on the processing

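AGO3 over control for the knob, 0.745, kept its direction at 0.661 (scaled outside the 100 most read windows), 0.902 (TMM), 0.931 (windows capped at 1000 reads), 0.770 (without the 10 most read knob windows) and 0.741 (bounds moved inward by 100 kb). AGO3 over total sRNA, 0.832, was 0.726, 0.871, 0.800 and 0.836 under the same settings other than TMM, and reversed to 1.07 with TMM. Control over total, 1.12, was 1.10, 1.18 (TMM), 1.04 and 1.13, and reversed to 0.935 with capped windows. Knob over distal arm, in reads per window, was 1.32 (AGO3), 1.85 (control) and 1.54 (total); capping gave 1.60, 1.84 and 1.77, leaving out the most read 1% of windows 1.77, 2.10 and 1.79, and moved bounds 1.41, 1.99 and 1.64. Knob over pericentromeric region, 0.600, 0.637 and 0.562, reversed to 1.33, 1.39 and 1.48 with capping and to 1.41, 1.54 and 1.57 without the most read 1%, since 3 windows hold 50% of the reads there; moved bounds gave 0.641, 0.684 and 0.598. Enriched knob windows were 0 over the control and 1 the other way. At a ratio of 2 they were 10 (0.746%, against 1.33% of all windows) and 60 (4.48%, against 2.68%). With 0.1 RPM added and at least 20 reads they were 16 (1.19%, against 1.62%) and 29 (2.16%, against 3.16%). Scaled outside the 100 most read windows they were 1 (0.0746%, against 0.666%) and 6 (0.448%, against 0.703%). By the rule itself, a lower ratio or less added RPM can only let more windows pass. A ratio of 2 needs 38 AGO3 reads where a ratio of 4 needs 112. The cause of the shift under the other scaling was not tested. Knob bins below 1, 60 of 67, were 40 with TMM factors, an alternative added after seeing the data. Counted at 20 reads, covered shares were 62.6% (AGO3), 59.6% (control) and 74.0% (total). Knob genes called in mRNA stayed at 0 under DESeq2, its size factors, no filter (28241 genes tested), the replicate block, each library left out in turn (0 to 0), and, added after seeing the data, without homozygous replicate 2 and wild type replicate 1. A count of 0 in so small a design shows nothing about stability. Over all genes, calls for homozygous against wild type, heterozygous against wild type and homozygous against heterozygous numbered 54, 22 and 5 without those 2 libraries, 4, 0 and 0 without a filter, 3, 4 and 1 without wild type replicate 2, 0, 0 and 1 without wild type replicate 1, and 76, 18 and 23 in DESeq2, which gave an adjusted p to 20, 8 and 30 knob genes. Fits that leave a genotype with 1 library assume that it varies like the others. Same-numbered libraries shared only a number: their deviations correlated at -0.36 (wild type and homozygous), -0.04 and -0.09, and with the homozygous numbers crossed the replicate block gave 0 knob calls and 1 call in all. Depth limits the window counts. With 1 RPM added, windows under 112 AGO3 reads could not reach a ratio of 4, so 213 of 1340 knob windows bear on that count. With 2 libraries per genotype, the test recovered 4-fold mRNA changes better than 2-fold ones in simulated data, which were more even than the real libraries. Recovery in the real libraries was not measured, and AGO3 itself was not called there. The count of 0 knob genes called therefore does not show that knob mRNAs were unchanged.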
